A study of Oryza sativa with 6 samples.

Results

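The genes described here bear names used for carriers, channels and pumps for potassium, sodium, calcium, magnesium, ammonium and nitrate. They were chosen by name: a gene was a member when its symbol or a synonym in a current rice gene table was HAK, HKT, AKT, KAT, KCO, TPK, NHX, CAX, MHX, ACA, CNGC, CLC, AMT or NRT followed by a number and an optional suffix. From its 39387 genes the rule took 63, 25 of them HAK, 9 AMT, 7 HKT, 6 ACA, 5 CAX, 3 KCO, 3 TPK, 3 NRT, 1 AKT and 1 MHX. The names KAT, NHX, CNGC and CLC matched 0 genes in it, and such genes were not analysed here. A probe set assigned to that gene alone was found for 48 of the 63, and 26 of these gave an intensity above 16 on at least 1 array and were tested. This value served as a floor, to which lower intensities were raised before fold changes were taken, while the signals given for single arrays are as deposited. The other 22 lay below the floor on all 6 arrays, and 15 genes, among them 6 of the 7 HKT genes, were not analysed for want of such a probe set.

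The leaf RNA came from 3 MADS29OX and 3 wild-type (WT) samples of rice var. PB1, with 1 Affymetrix rice array per sample. MADS29OX plants carry the *OsMADS29* cDNA, which encodes a MADS-box transcription factor, behind a ubiquitin promoter (pUBI) in place of its own, and WT plants are of the same variety. All samples were leaves 3 and 4 counted from the flag leaf. MADS29OX plants were stunted and flowered early, with thin and small leaves and altered roots, and neither harvest time nor the number of lines and plants behind each sample is given in the sources used here.

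Potassium is the main cation of plant cells, and plants take it up and move it through HAK carriers, which run against steep gradients, and through channels such as AKT1 and the tandem-pore KCO channels of the vacuole. HKT carriers move sodium, or sodium with potassium. CAX exchangers load calcium into the vacuole against protons, ACA pumps remove calcium from the cytosol with ATP, and MHX exchangers move magnesium and zinc against protons in *Arabidopsis*. AMT transporters carry ammonium and NRT transporters nitrate, and leaf cells assimilate both through glutamine synthetase and glutamate synthase.

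*OsMADS29* (LOC4328443) gave signals of 2016, 1788 and 3590 on the MADS29OX arrays, against 6.70, 6.37 and 6.64 on the WT arrays. The difference was at least 147-fold (log2 change at least 7.20, SE 0.26, limma adjusted p = 0.000139), and the 2-sided exact permutation p over arrays was 0.1, which is the lowest that 3 and 3 arrays can reach. The log2 values correlated across probe sets at 0.936 to 0.969 between MADS29OX arrays, at 0.992 to 0.997 between WT arrays and at 0.877 to 0.899 between the groups. Leaf markers were present on all arrays: the summed signal of the 7 measured ran from 28386 to 36125 on MADS29OX arrays and from 21972 to 22178 on WT arrays. They moved apart: *LIR1* (4.72 on the log2 scale), *CAB2R* (1.46), *PORB* (1.13) and *CHLP* (1.09) were called higher, *PSAG* (-1.05) was called lower, and *RBCS* and *RCA* were not called. Of the 5 root markers measured, all lay below the floor on every array, as did the markers measured for shoot meristem (3 names) and for seed and panicle (4 genes), and no guard cell marker of the list was matched. Of 3 phloem and vein genes, the sucrose transporter gene *SUT1* was lower (log2 change -1.27, SE 0.21, limma adjusted p = 0.00848), the sucrose synthase gene *SUS4* was higher (log2 change 2.59, SE 0.46, limma adjusted p = 0.0112) and *SUS1* was not called, and their summed signal ran from 102 to 276 on MADS29OX arrays and from 107 to 132 on WT arrays. The part of these shifts in the results that follow was not tested. In bulk leaf RNA, fewer cells of a type and less RNA per cell cannot be told apart.

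Of the 26 transporter genes tested, 3 were higher and 5 were lower in MADS29OX than in WT leaves, a call being a limma adjusted p (Benjamini-Hochberg, over all tested probe sets) no higher than 0.05 together with a change of 2-fold or more. Over all 10045 genes tested, 5.05% were higher and 5.03% were lower, so 10.1% were called, against 8 of the 26 transporter genes. The median log2 fold change was -0.02 for the tested transporter genes and -0.01 for all tested genes, and 13 of the 26 were positive and 13 negative. The median size of the change, without its sign, was 0.54 on the log2 scale for the transporter genes and 0.29 for all tested genes. These counts rest on the genes that rose above the floor somewhere. Of the 26, 6 did so on MADS29OX arrays alone and 3 on WT arrays alone. A gene admitted in this way differs in part by construction. Among the calls, *HAK17* is 1 of the 6 and *MHX1* is 1 of the 3. Of the 17 transporter genes above the floor in both groups 6 were called, against 9.92% of all 8867 such genes. The plot of fold changes by ion shows the higher and lower genes within each ion class.

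**Figure D1:**
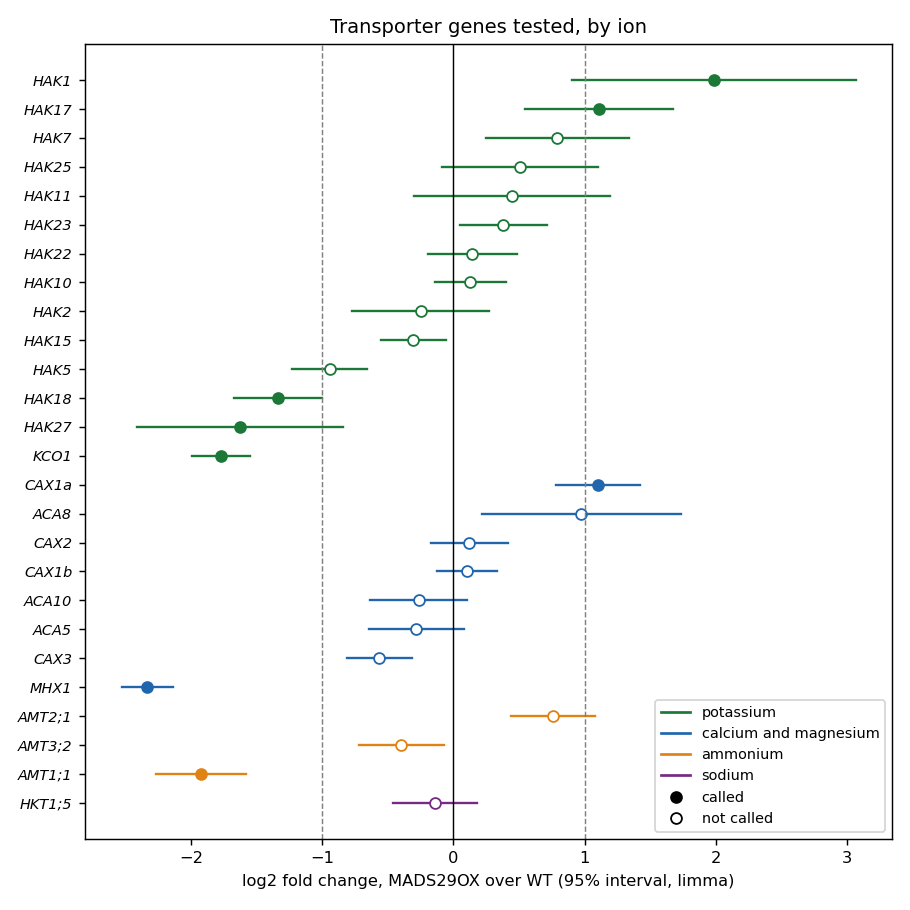
Log2 fold change (MADS29OX over WT) of the 26 transporter genes tested, with 95% intervals from limma, coloured by ion; filled points were called and dashed lines mark a 2-fold change. Potassium genes run from *KCO1* at -1.77 to *HAK1* at 1.99, and *MHX1* is the lowest point at -2.33.

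Potassium genes moved both ways. Of 14 tested, 2 were higher (*HAK1*, *HAK17*) and 3 were lower (*KCO1*, *HAK27*, *HAK18*), and 2 more passed the adjusted p under 2-fold, *HAK7* upward and *HAK5* downward. Over all transporter genes 12 of 26 passed the adjusted p with no fold limit, against 26.6% of all tested genes. *HAK1*, which in rice encodes a high-affinity potassium carrier known from roots, had signals of 179, 81.4 and 283 on MADS29OX arrays, against 40.9, 37.7 and 43.0 on WT arrays. All MADS29OX values exceeded all WT values, but they spread widely, with MADS29OX replicate 2 the lowest. The means were 181 ± 101 in MADS29OX and 40.5 ± 2.69 in WT leaves (SD, n = 3 each), a rise of 3.96-fold (log2 change 1.99, SE 0.44, limma adjusted p = 0.0234). That probe set is of a kind that can cross-hybridize. The second probe set of *HAK1* gave 49.0, 20.0 and 77.1 in MADS29OX against 13.6, 12.5 and 14.5 in WT leaves, with the same order of the MADS29OX arrays, and was not called (log2 fold change of at least 1.40, adjusted p = 0.0831 from limma).

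*HAK17*, another HAK carrier gene, had signals of 24.1, 44.3 and 38.6 on MADS29OX arrays, against 12.8, 7.92 and 11.5 on WT arrays, all of which lay below the floor. It was higher by at least 2.16-fold (log2 change at least 1.11, SE 0.23, limma adjusted p = 0.0187). As the mean of its probe sets, which include a dimmer one, *HAK17* had 0.69. *HAK7*, also a HAK carrier gene, had 254, 164 and 277 in MADS29OX and 138, 114 and 141 in WT leaves. Its groups did not overlap, and its rise of 1.73-fold (log2 fold change of 0.79, adjusted p = 0.0472 from limma) stayed under the fold limit. A second probe set of *HAK7* gave 0.84 (adjusted p = 0.0106 from limma), and without MADS29OX replicate 2 the gene was called, at 1.03 (adjusted p = 0.00701).

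Among the lower potassium genes, *KCO1* encodes a tandem-pore potassium channel of the vacuolar membrane in rice. Its signals were 12.08, 16.5 and 12.02 on MADS29OX arrays, against 55.6, 59.9 and 50.6 on WT arrays. With 2 of 3 MADS29OX arrays at the floor the drop was at least 3.42-fold (log2 change -1.77 or lower, SE 0.09, limma adjusted p = 0.000252). *HAK18* had 111, 105 and 80.4 in MADS29OX and 250, 242 and 251 in WT leaves. Its WT arrays lay close together, and the decrease was 2.53-fold (log2 change -1.34, SE 0.14, limma adjusted p = 0.00185).

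*HAK27* had 19.0, 44.7 and 32.1 in MADS29OX and 103, 98.2 and 79.6 in WT leaves, a decrease of 3.09-fold (log2 change -1.63, SE 0.32, limma adjusted p = 0.0156). The groups did not overlap, although MADS29OX arrays again spread more widely on the log2 scale. *HAK27* and *HAK16* are neighbours in the gene table with 0 genes between them. *HAK16* lay below the floor throughout, at 6.26, 7.35 and 6.67 in MADS29OX and 9.15, 10.6 and 14.4 in WT leaves, and was not tested.

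*HAK5*, a carrier gene of high-affinity potassium uptake and of potassium transfer to the shoot in rice, gave 710, 868 and 674 on MADS29OX arrays and 1473, 1454 and 1378 on WT arrays. The groups lay well apart and the adjusted p was passed, but the change of 1.92-fold (log2 change -0.94, SE 0.12, 95% interval from -1.23 to -0.66, limma adjusted p = 0.00338) fell short of 2-fold. *HAK5* was called lower without MADS29OX replicate 2 (log2 fold change of -1.05, adjusted p = 0.00131) and when arrays were weighted (-1.03, adjusted p = 0.000849). A second, dim probe set of *HAK5* was above the floor on 1 array alone, and averaging the probe sets gave -0.41.

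**Figure D2:**
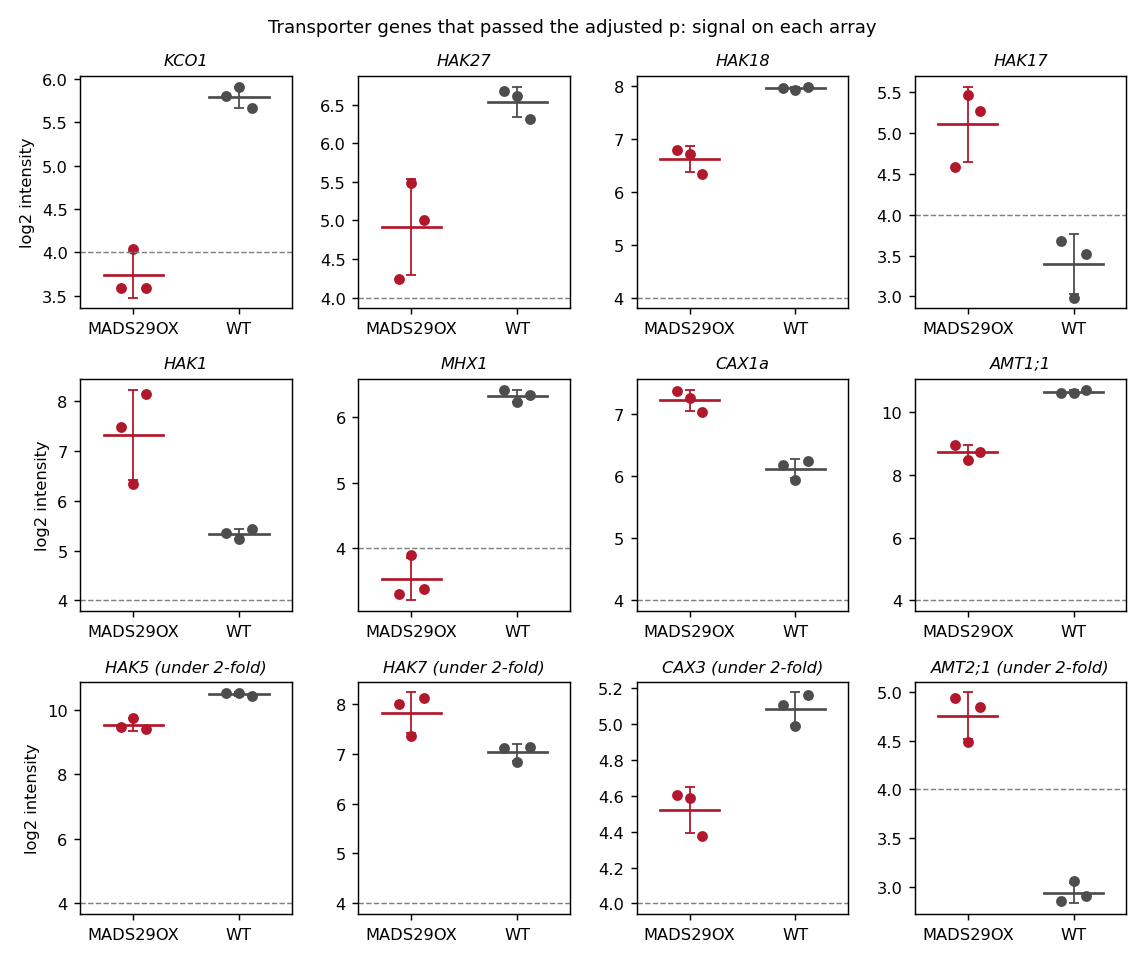
Signal on each array (log2 intensity, separate axis per gene) for the 12 transporter genes that passed the adjusted p; points are arrays, lines and bars are mean and SD of the 3 deposited values, and the dashed line is the floor of 16 (4 on the log2 scale). The 8 called genes come first, then the 4 under 2-fold, and the MADS29OX and WT arrays do not overlap for any of the 12.

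The remaining 7 potassium genes were not called. *HAK23* (0.38, adjusted p = 0.0908 from limma) and *HAK15* (-0.31, adjusted p = 0.0748) had groups that did not overlap. For *HAK10*, a carrier gene of the vacuolar membrane, the 95% interval of the log2 fold change was -0.14 to 0.40. The intervals were wider for *HAK2* (-0.77 to 0.27), *HAK25* (-0.09 to 1.11) and *HAK11* (-0.30 to 1.20). *HAK22* was above the floor on 1 array. The root potassium channel gene *AKT1* was below the floor, with 12.9, 11.5 and 9.47 in MADS29OX and 8.81, 7.67 and 10.1 in WT leaves. Also below the floor were 9 HAK genes, *KCO2*, *TPK2* and *TPK3*, the TPK genes being placed with potassium by name alone.

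Calcium and magnesium genes showed the largest decrease of the tested members and 1 increase. Of 8 tested, *MHX1* was lower and *CAX1a* was higher. *MHX1*, named for a magnesium/proton exchanger, had signals of 9.76, 14.8 and 10.3 in MADS29OX leaves, all below the floor, against 85.9, 75.4 and 81.1 in WT leaves. It was at least 5.04-fold lower (log2 change -2.33, SE 0.08, limma adjusted p = 0.000136). The second probe set of *MHX1* was below the floor on all arrays, with 5.45, 7.67 and 7.19 in MADS29OX and 10.1, 13.6 and 13.8 in WT leaves.

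*CAX1a*, a vacuolar cation/proton exchanger gene, had 165, 154 and 131 in MADS29OX and 72.2, 61.5 and 75.6 in WT leaves. The means were 150 ± 17.3 in MADS29OX and 69.8 ± 7.35 in WT leaves (SD, n = 3 each), a rise of 2.15-fold (log2 change 1.10, SE 0.13, 95% interval from 0.79 to 1.42, limma adjusted p = 0.00286). *CAX3*, of the same family, had 24.4, 24.0 and 20.8 in MADS29OX and 34.5, 31.8 and 35.9 in WT leaves, and its log2 fold change of -0.57 (adjusted p = 0.0111) stayed under 2-fold. The exchanger genes with a passed adjusted p therefore had opposite signs.

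*CAX1b* was near the floor in MADS29OX leaves, at 19.1, 16.6 and 14.8, and lower in WT leaves, at 5.34, 5.94 and 5.45. With values raised to the floor, the log2 fold change of *CAX1b* was 0.10. With no floor it was 1.59 and was called (adjusted p = 0.000429 from limma). That value rests on WT signals below the floor, where intensities carry little information. *CAX2* was above the floor on 1 array. Of the calcium pump genes, *ACA8* had 45.7, 19.4 and 35.1 in MADS29OX and 12.7, 11.97 and 14.9 in WT leaves, all of the WT values being below the floor (log2 fold change of at least 0.97, adjusted p = 0.0682 from limma). *ACA8* was called higher with no floor (1.26, adjusted p = 0.0230), when arrays were weighted (1.09, adjusted p = 0.00550) and without MADS29OX replicate 2 (1.32, adjusted p = 0.00423). Its value with no floor has the same limit as that of *CAX1b*. *ACA10* (-0.27, 95% interval from -0.64 to 0.11) and *ACA5* (-0.28, 95% interval from -0.65 to 0.08) were not called.

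The 1 sodium gene tested was *HKT1;5*, which in rice encodes a carrier that withdraws sodium from the xylem and is also known as SKC1. Its signals were 7.35, 7.54 and 7.65 on MADS29OX arrays and 16.03, 21.3 and 13.1 on WT arrays. At the floor the log2 fold change was -0.14 (adjusted p = 0.481 from limma), while with no floor it was -1.13 and was called (adjusted p = 0.00548). All these signals are close to or under the floor, where intensities carry little information.

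Ammonium transport was represented by 3 tested genes. *AMT1;1*, a high-affinity ammonium transporter gene, had signals of 498, 353 and 420 on MADS29OX arrays, against 1556, 1554 and 1675 on WT arrays. Every MADS29OX array lay far under every WT array, and the means were 424 ± 72.7 in MADS29OX and 1595 ± 69.5 in WT leaves (SD, n = 3 each). The decrease was 3.80-fold (log2 change -1.93, SE 0.14, limma adjusted p = 0.000607). The second probe set of *AMT1;1* lay below the floor on all arrays, at 8.41, 8.05 and 8.75 in MADS29OX and 8.42, 8.41 and 8.41 in WT leaves. *AMT2;1* ran the other way, with 30.6, 22.5 and 28.8 in MADS29OX and 7.23, 8.33 and 7.49 in WT leaves, all WT values being below the floor. Its log2 fold change was at least 0.76 (adjusted p = 0.0103), under 2-fold, and with no floor it was 1.82 and was called (adjusted p = 0.000414). The value with no floor rests on WT signals that carry little information. *AMT3;2* was at 15.4, 11.5 and 15.7 in MADS29OX and 24.6, 17.7 and 21.5 in WT leaves and was not called (adjusted p = 0.0771). With all MADS29OX values of *AMT3;2* below the floor, its log2 fold change was -0.40 or lower. The other 5 AMT genes with a probe set were below the floor, and so were the nitrate transporter genes *NRT2.2* and *NRT2.3*, so the leaf arrays gave no test of the named nitrate carriers.

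Other genes of ion and nitrogen handling were followed as a list, in which 18 of 26 genes were tested, 0 were higher and 4 were lower with limma (median log2 fold change of -0.14), against 5.05% higher and 5.03% lower among all tested genes. With log2 of the value plus 16, 2 of the 4 were called, *GLN1-1* and *GLR3.1*. Names of proton pumps, nitrate and peptide transporters and anion channels were also sought, but gave this list no gene. In the nitrogen class 2 of 10 were lower. *GLN1-1*, which encodes a cytosolic glutamine synthetase that assimilates ammonium, had 617, 856 and 720 in MADS29OX and 1991, 1914 and 2002 in WT leaves, a decrease of 2.72-fold (log2 change -1.44, SE 0.13, limma adjusted p = 0.00130). *NLP1*, of the NIN-like transcription factors of nitrate responses, had 62.0, 45.6 and 49.8 in MADS29OX and 111, 116 and 114 in WT leaves (log2 change -1.13, SE 0.13, limma adjusted p = 0.00264). For both genes the MADS29OX arrays lay under all WT arrays.

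The other 8 tested nitrogen genes, none of them called, are given for comparison, a choice made after their values were seen. *NLP2* passed the adjusted p under 2-fold (-0.54, adjusted p = 0.0436 from limma), while *GLN1-2* (-0.81, adjusted p = 0.101) and *NLP3* (-0.72, adjusted p = 0.116) were not called, except *NLP3* without MADS29OX replicate 2 (-1.01, adjusted p = 0.0163) and *GLN1-2* without MADS29OX replicate 3 (-1.09, adjusted p = 0.0395). The plastid glutamine synthetase gene *GLN2* had 1483, 3039 and 1657 in MADS29OX and 1751, 1736 and 1794 in WT leaves. Its 95% interval was -0.52 to 0.82, and its log2 fold change of 0.15 turned to -0.17 without MADS29OX replicate 2 and to -0.62 when its probe sets were averaged. The glutamate synthase gene *Fd-GOGAT* (0.36, 95% interval from -0.04 to 0.75) and the nitrate reductase gene *NIA1* (-0.26, 95% interval from -1.07 to 0.56) were not called. *GLT2* had 32.3, 28.6 and 15.7 in MADS29OX and 9.19, 7.59 and 8.73 in WT leaves, all of the WT values being below the floor. It was not called (log2 fold change of at least 0.62, adjusted p = 0.149 from limma). With no floor *GLT2* was called higher (1.52, adjusted p = 0.00780), a value that rests on WT signals that carry little information. The glutamate dehydrogenase gene *GDH2* was at -0.03 (adjusted p = 0.829). The plot of nitrogen genes shows all 10 tested genes of this class beside the ammonium transporters.

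**Figure D3:**
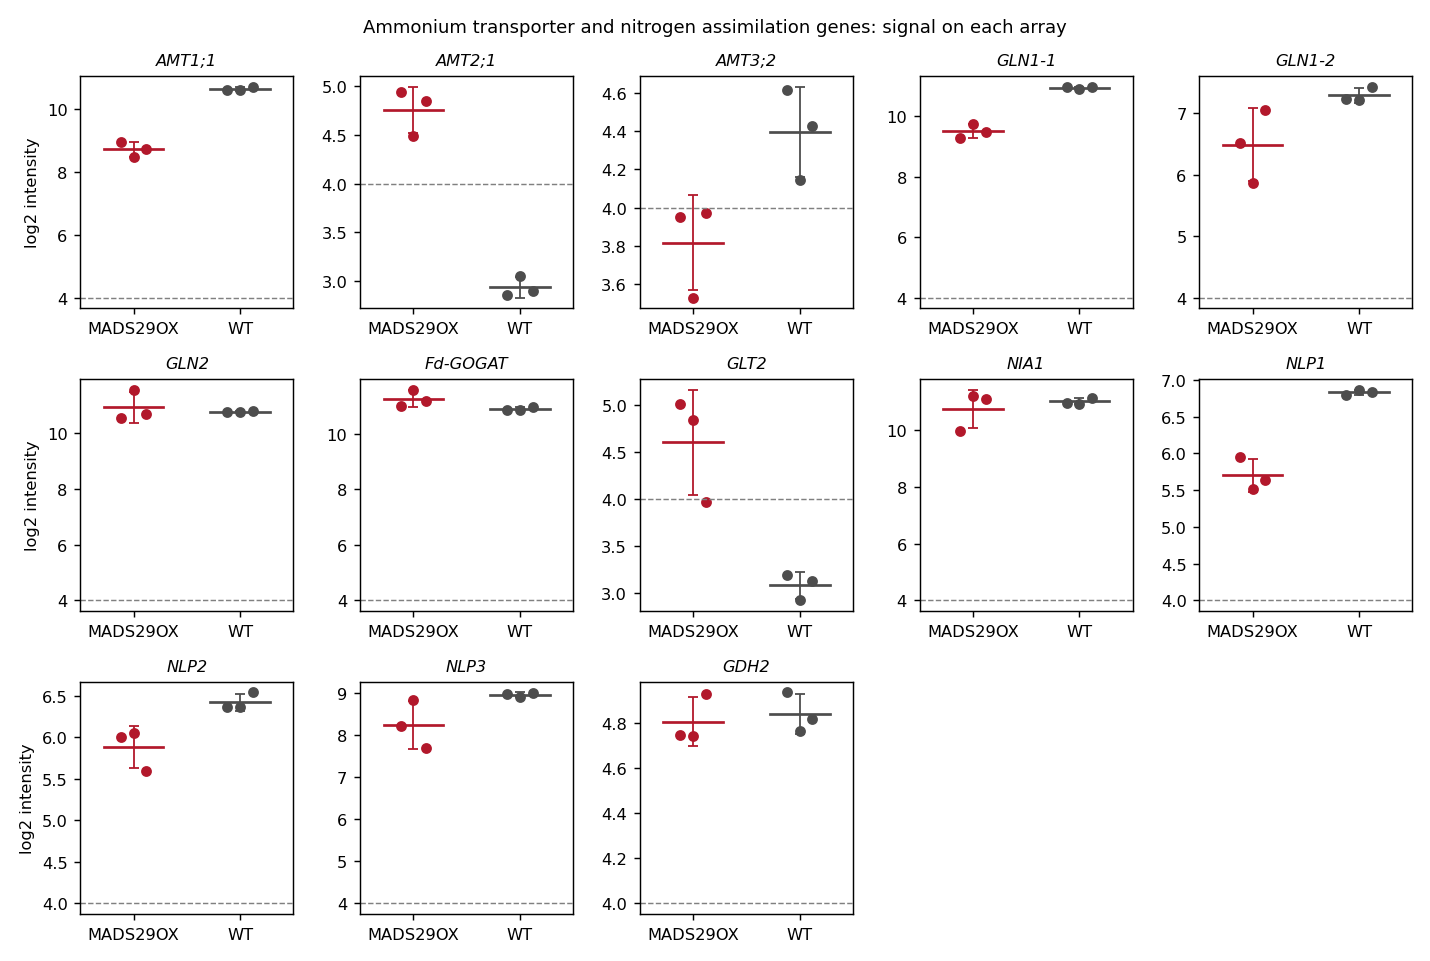
Signal on each array (log2 intensity, separate axis per gene) for the 3 tested ammonium transporter genes and the 10 tested genes of nitrogen assimilation and its regulation; points are arrays, lines and bars are mean and SD of the 3 deposited values, and the dashed line is the floor of 16. *AMT1;1*, *GLN1-1* and *NLP1*, which were called, lie lower on all MADS29OX arrays. *AMT3;2*, *GLN1-2*, *NLP2* and *NLP3*, which were not called, also lie lower on all of them, and *Fd-GOGAT* lies higher. *AMT2;1* and *GLT2* lie higher with all WT arrays below the floor, and *GLN2*, *NIA1* and *GDH2* overlap between MADS29OX and WT arrays.

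Among the other cation carriers and channels, 2 of 8 tested genes were lower. *MRS2-A*, of a magnesium transporter family, had 221, 314 and 184 in MADS29OX and 564, 570 and 528 in WT leaves (log2 change -1.24, SE 0.20, limma adjusted p = 0.00826). *GLR3.1*, named for the glutamate receptor-like cation channels, had 19.5, 36.6 and 24.0 in MADS29OX and 78.9, 79.1 and 83.2 in WT leaves (log2 change -1.64, SE 0.23, limma adjusted p = 0.00538). Averaged over its probe sets, *GLR3.1* had -0.77, under 2-fold, and the table gives this name to another gene as well.

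The transporter genes lay over much of the range of signal. The plot of all tested genes shows *AMT1;1* among bright genes and *KCO1*, *MHX1* and *HAK17* near the edge that the floor sets. For the 14 tested transporter genes whose mean exceeded 32, SDs of log2 values had a median of 0.249 in MADS29OX and 0.0831 in WT leaves. The SD was wider in MADS29OX leaves for 12 of them. The exceptions were *KCO1* and *MHX1*, whose MADS29OX values were raised to the floor on 2 and 3 arrays, which narrows their SD. Over all 9302 probe sets with such a mean the medians were 0.253 in MADS29OX and 0.0817 in WT leaves. Signals did not overlap between the groups for 16 of the 26 tested transporter genes, against 45.9% of all tested genes. Below the floor, the deposited values did not overlap for 7 of the 22 transporter genes (3 higher and 4 lower in MADS29OX leaves), against 17.5% of all such genes. Intensities there carry little information, and a gap can be very small. For *AMT3;1* the lowest MADS29OX value was 5.655 and the highest WT value 5.650.

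**Figure D4:**
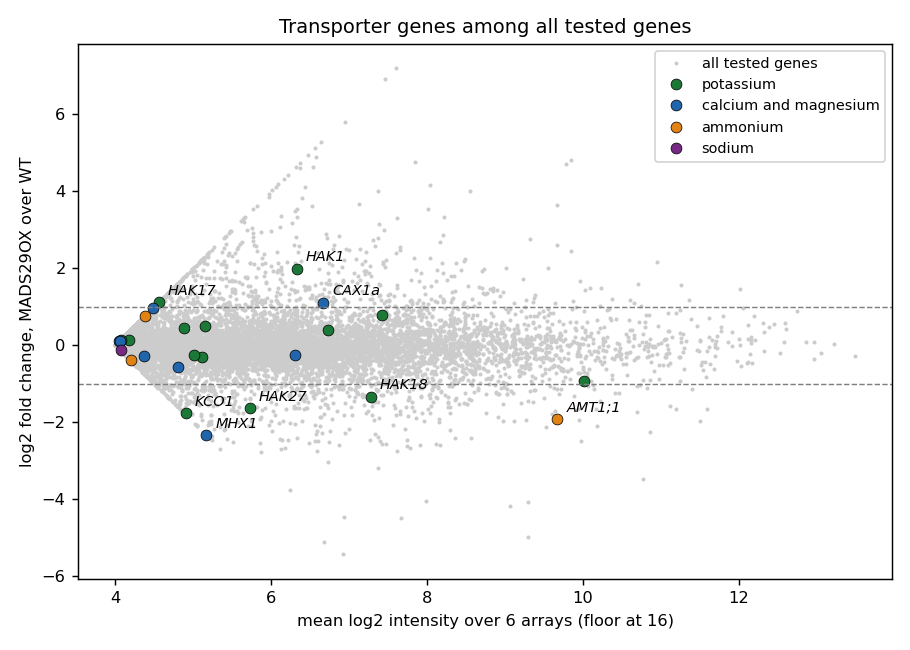
Log2 fold change (MADS29OX over WT) against mean log2 intensity over 6 arrays for all 10045 tested genes (grey) and the 26 transporter genes (coloured by ion, called genes named); dashed lines mark a 2-fold change. The sloping edges at the left come from the floor of 16, and *AMT1;1* is the called transporter gene with the highest mean signal.

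The calls differed in how many alternatives kept them. *AMT1;1*, *HAK18*, *KCO1* and *MHX1* were called under all 17 alternative fits, and *CAX1a* under all but log2 of the value plus 16, where its log2 fold change was 0.95. The alternatives are not independent of each other. Some leave a gene's values as they were, such as averaging where only 1 of its probe sets was tested. The calls of *HAK1*, *HAK27* and *HAK17* were lost whichever WT array was dropped, while the log2 fold changes stayed at 1.94 to 2.03 for *HAK1*, -1.74 to -1.56 for *HAK27* and at least 1.11 for *HAK17*. The limma adjusted p was 0.0918 to 0.0969 for *HAK1*, 0.0613 to 0.0759 for *HAK27* and 0.0786 to 0.0862 for *HAK17*. Without MADS29OX replicate 3 they were lost as well, with limma adjusted p = 0.0528 for *HAK1* (log2 fold change of 1.58), 0.0599 for *HAK27* (-1.68) and 0.0749 for *HAK17* (1.03). *HAK1* was not called without MADS29OX replicate 1 either (adjusted p = 0.0779), and *HAK17* stayed under 2-fold without MADS29OX replicate 2 (0.93). With log2 of the value plus 16, which shrinks dim genes and tests all probe sets, 4 of the 48 transporter genes with a probe set were called. All 4 were lower, and the share over all 17905 genes with a probe set was 2.41%. With no floor 12 were called, 6 higher and 6 lower, against 13.5% of all genes. Calls with no floor rest in part on intensities below 16, which carry little information.

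**Figure D5:**
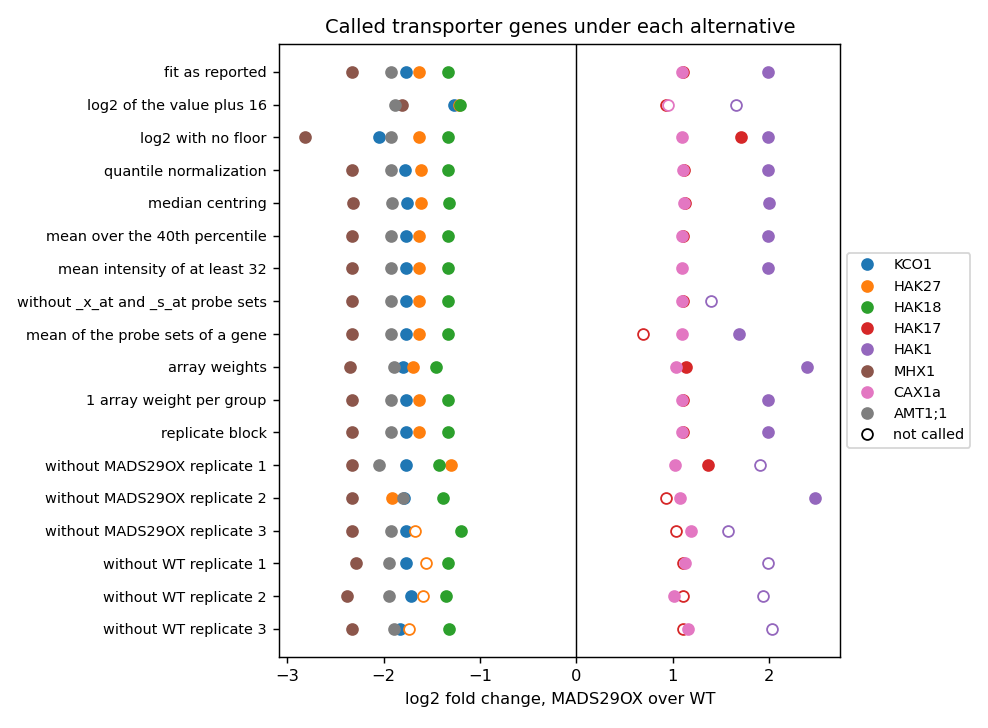
Log2 fold change (MADS29OX over WT) of the 8 called transporter genes in the fit as reported and in 17 alternative fits, 1 row per fit and 1 colour per gene; open points were not called. The sign of each gene is the same in every row where it could be fitted, and the open points belong mostly to *HAK1*, *HAK17* and *HAK27*.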

How the data were processed

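The authors deposited 1 linear intensity per probe set and array (57381 probe sets, with 123 controls that were left out). How background, scaling and summary were done is not stated in the sources used here, and the values were kept as they stood. Array medians of 5.95 to 5.997 were nearly equal. Values below 16 were raised to 16, log2 was taken, and the 14238 probe sets above 16 on at least 1 array were fitted with lmFit and eBayes (limma 3.58.1, R 4.3.3), with no term but the group and with Benjamini-Hochberg adjustment over them. The number of arrays limits the precision. Since nothing says that samples came from separate plants, p-values measure the spread between these samples.

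Genes came from the platform annotation (1 gene for 22436 probe sets, several for 95) and from the gene table of assembly ASM3414082v1, and took their brightest probe set by mean over 6 arrays (Python 3.11.15). Members, lists and tests were chosen with earlier results of these data known. From the further list 4 genes were dropped, because other names showed another gene or the match lacked the prefix sought. All tested members could be named, and called genes of the further list. Simulated data covered these 14238 probe sets, but changes were planted only where the WT mean, taken on the log2 scale, exceeded an intensity of 32. Of the planted changes, 33% of 2-fold and 88.6% of 4-fold ones were called. A planted 2-fold change lies at the fold limit of a call, so the 33% is held down by that limit. These rates do not cover dimmer probe sets, among them those of tested members such as *HAK17*, *ACA8* and *AMT2;1*.

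Alternatives were log2 of the value plus 16, no floor, quantile normalization, median centring, stricter filters, leaving out _x_at and _s_at probe sets, averaging the tested probe sets of each gene, array weights per array and per group, no fold limit, a replicate block and dropping each array in turn. For single genes of the further list, all alternatives were chosen after seeing the data.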

Additional observations from a re-analysis of the deposited data

How the results depend on the processing

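All 26 tested transporter genes kept the sign of their fold change, or lay at 0, in the alternatives run. Of 426 values under alternatives 397 stayed on the same side of the thresholds, 20 lost a call and 9 gained one. These values are not independent of each other. With log2 of the value plus 16, 0 transporter genes were called higher (0 of potassium, 0 of calcium and magnesium), and 2 genes of the further list were lower (*NLP1* and *MRS2-A* lost their calls, at -0.93 and -1.19). With no floor 6 were higher (1 of ammonium, 3 of calcium and magnesium), and 1 sodium gene was lower. With no fold limit 5 were higher (1 of ammonium), and 2 of calcium and magnesium were lower. 1 potassium gene was higher with a mean intensity of at least 32, without _x_at and _s_at probe sets and as the mean of the probe sets. With array weights 2 of calcium and magnesium were higher. With 1 array left out, 1 to 4 transporter genes were higher and 4 to 6 lower, of potassium 0 to 2 higher and 2 to 4 lower, of calcium and magnesium 1 to 2 higher, and *OsMADS29* ran from 6.89 to 7.39. Averaged over probe sets, *GLN2* turned to -0.62. With 1 array left out it ran from -0.17 (without MADS29OX replicate 2) to 0.35, and *NIA1* from -0.47 to 0.13 (without MADS29OX replicate 1). *GDH2*, near 0 throughout, turned to 0.0026 with array weights and ran from -0.094 to 0.017 with 1 array left out. With no floor *GLT2* was called higher (1.52). Deviations of same-numbered arrays from their group means correlated at r = 0.03, -0.04 and -0.13, and those of MADS29OX replicate 3 and WT replicate 2 at 0.18. With so few arrays these values cannot show whether same-numbered samples were handled together. With the replicate block 3 transporter genes were higher and 5 lower, the same 8 genes. Where no cause is given, it was not tested. Dim genes are limited by the floor, and 22 transporter genes gave no test.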
